A study of Homo sapiens with 6 samples.

Results

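The nuclear-encoded genes of the mitochondrial respiratory chain and ATP synthase were compared between a pair of fractions of MCF10AT1 cells that a sort had separated by surface CD24 and CD44. The genes were the protein-coding GENCODE 29 genes outside the Y chromosome and the mitochondrial genome whose symbols begin with NDUFA, NDUFB, NDUFC, NDUFS, NDUFV, UQCR, COX4I, COX5, COX6, COX7, COX8 or ATP5, together with SDHA, SDHB, SDHC, SDHD and CYC1. This rule gave 100 genes of the 58381 gene IDs in the deposited table, all 100 of them present there, and it uses no measured value. Of the 100, 92 passed the filter on low values (a mean of at least 10 normalized counts over the 6 libraries), as did 16047 genes in all. By complex, 37 genes were assigned to complex I, 4 to complex II, 10 to complex III, 19 to complex IV and 18 to complex V. The symbol rule also took 8 complex I assembly factors (NDUFAF1 to NDUFAF8), 2 accessory genes of complex V (ATP5IF1 and ATP5S) and 2 readthrough genes (NDUFC2-KCTD14 and ATP5MF-PTCD1).

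MCF10AT1 is a human breast epithelial line derived from MCF10A cells that carry an activated HRAS gene. The CD24low group was the CD24low, CD44high fraction and the CD24high group the CD24high, CD44-positive fraction, with 3 libraries each. Both groups came from cells grown in DMEM/F12 with horse serum, insulin, EGF, cholera toxin, hydrocortisone, penicillin, streptomycin and glutamine, and the labels give no other treatment. In the deposited column names the CD24low fraction is CSC and the CD24high fraction is Bulk. The title of the series speaks of control of breast cancer stem cells by RUNX factors, and the comparison asks what sets the fractions apart. Whether the libraries of a group came from separate cultures is not stated, so every p-value rests on the spread among 3 libraries that may be technical repeats.

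The respiratory chain sits in the inner mitochondrial membrane. Complex I takes electrons from NADH and complex II from succinate, both pass them to coenzyme Q, complex III hands them on to cytochrome c, and complex IV transfers them to oxygen. Complexes I, III and IV pump protons as they work, and complex V, the ATP synthase, uses the returning protons to make ATP. Most subunits are encoded in the nucleus and imported, while a few core subunits of complexes I, III, IV and V are encoded in mitochondrial DNA, so the assembly of a complex draws on both genomes. Epithelial cells in culture can draw ATP from glycolysis and from this chain, and the balance between them is often discussed for stem-like fractions of breast cancer lines.

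The libraries held 16691162 to 27293177 recovered reads, the fewest in CD24high replicate 3. The respiratory chain genes took 0.531% to 0.684% of all reads in a library. In replicate order, genes of ribosomal RNA (rRNA) took 1.30%, 2.27% and 10.2% of a CD24high library and 7.15%, 7.07% and 1.97% of a CD24low library. This share counts rRNA genes of the nucleus, rRNA pseudogenes and the rRNA genes of the mitochondrial genome together. Differences are therefore also given among libraries of low rRNA share (CD24high replicates 1 and 2 with CD24low replicate 3) and of high rRNA share (the other 3 libraries). Each of these rests on 1 library on a side and has no test. That library is CD24low replicate 3 at low share and CD24high replicate 3 at high share. All 6 epithelial markers checked (EPCAM, CDH1, KRT5, KRT14, KRT17 and TP63) were present in every library, with a summed level of 40940 to 53275 normalized counts in CD24high and 30272 to 36830.5 in CD24low libraries. KRT5 gave most of this sum in every library. The fitted ratio of CD24low to CD24high was 0.41 for TP63, 0.48 for KRT17, 0.54 for CDH1, 0.63 for EPCAM, 0.67 for KRT14 and 0.80 for KRT5. Only for KRT14 did the groups overlap. DESeq2 called TP63 and CDH1 lower, and limma called no marker of this list after adjustment. Of 6 fibroblast markers, LUM was at 0 reads in all libraries and COL1A2 at 0 or 1 read, while the summed level of the list was 52.6 to 358 in CD24high and 887 to 3835 in CD24low libraries. DCN gave 10.2 to 325 of it in CD24high and 846 to 3704 in CD24low libraries. The immune marker PTPRC stayed at or below 1.98 normalized counts in every library. Of the endothelial markers, CDH5 stayed at or below 4.38 normalized counts. PECAM1, the other, had 85.5 to 393 in CD24high and 105 to 340 in CD24low libraries. The part of these markers in the results below was not tested.

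RefSeq promoter windows on GRCh38.p14, 250 bases before to 50 bases after each annotated start, were matched to 80 of the 100 genes, 75 of them tested. The window of NDUFA5 (chromosome 7, 123601602 to 123601901) lay upstream of the GENCODE span of that gene, which ends at 123558255. The 75 also include the readthrough gene NDUFC2-KCTD14, whose window lies within the span of NDUFC2. Nuclear respiratory genes are known targets of the factors NRF1, GABP (an ETS factor) and YY1, and their promoters usually lack a TATA box. GCGCA and GCGC with 1 base of any kind between them, an NRF1 motif, were found in 22.7% of the 75 windows (17), against 10.0% of the windows of all genes tested and 5.78% of all 35116 RefSeq windows of that length. CCGGAAG, an ETS motif, was in 28.0% (21), against 17.0% and 10.3%. AAGATGGCG, a YY1 motif that can share its first letters with the end of the ETS motif, was in 10.7% (8), against 3.42% and 1.75%. GGGCGG, an SP1 motif, was in 58.7%, against 65.6% and 45.0%, and TATAAA in 8.0%, against 6.53% and 11.5%. Both strands were searched, and a match describes letters and not a bound site.

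Stretches of up to 100 bases upstream of the start and free of annotated exons are shown for 7 genes, with every match to these 5 motifs in capitals. NDUFA12 and NDUFB4 (complex I) hold the NRF1 letters, UQCR11 (complex III) holds the ETS letters on both strands and an SP1 match, and COX6A1 (complex IV) holds a pair of SP1 matches. NDUFB10, whose difference was among the largest, is shown for a GC content of 80.0% with no match in the stretch. Its full window holds 1 SP1 match. COX7B and COX7B2 are shown as stretches upstream of a used and an unused gene for the same complex IV subunit. The full window of COX7B holds 2 TATAAA matches and that of COX7B2 holds 0 matches to any motif. The windows of NDUFB4, UQCR11 and COX6A1 also hold matches beyond those shown.
NDUFA12, chr12:95003771-95003870, minus strand: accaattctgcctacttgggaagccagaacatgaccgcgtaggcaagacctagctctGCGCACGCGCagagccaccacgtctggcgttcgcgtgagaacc
NDUFB4, chr3:120596209-120596308, plus strand: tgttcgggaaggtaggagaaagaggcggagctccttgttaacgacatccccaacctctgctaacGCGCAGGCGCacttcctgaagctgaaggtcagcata
UQCR11, chr19:1605491-1605590, minus strand: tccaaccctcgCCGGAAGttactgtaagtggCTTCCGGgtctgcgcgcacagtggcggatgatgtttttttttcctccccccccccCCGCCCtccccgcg
COX6A1, chr12:120437990-120438089, plus strand: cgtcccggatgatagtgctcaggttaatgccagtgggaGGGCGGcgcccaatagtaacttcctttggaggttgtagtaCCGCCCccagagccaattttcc
NDUFB10, chr16:1959408-1959507, plus strand: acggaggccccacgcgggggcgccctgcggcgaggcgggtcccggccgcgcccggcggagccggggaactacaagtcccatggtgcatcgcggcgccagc
COX7B, chrX:77899338-77899437, plus strand: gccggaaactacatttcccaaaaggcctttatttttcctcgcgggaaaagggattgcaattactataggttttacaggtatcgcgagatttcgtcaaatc
COX7B2, chr4:46909246-46909345, minus strand: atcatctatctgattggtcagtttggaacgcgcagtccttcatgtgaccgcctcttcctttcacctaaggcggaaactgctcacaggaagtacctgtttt

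The respiratory chain genes differed little between the fractions. With limma's adjusted p below 0.05, 0 of 92 tested members passed in either direction (0% of all genes tested, higher or lower). At an unadjusted p below 0.05, 4 members were higher in CD24low cells (background 6.34%) and 0 were lower (background 7.15%). DESeq2 on the recovered reads called 1 member higher, ATP5MC2, and 0 lower, against 1.36% and 1.15% of all genes; before adjustment it gave 2 higher (6.04%) and 0 lower (6.97%). The quasi-likelihood test of edgeR gave 0 after adjustment (0% of all genes), and before it 5 higher (6.61%) and 0 lower (7.5%). The median difference (CD24low minus CD24high in log2 of the normalized count + 1) was 0.09 over the 92 members, with quartiles of 0.02 and 0.17 and a range of -0.29 to 0.51; over all genes the median was -0.01. The SD of the differences was 0.12 over the members, 0.45 over all genes and 0.33 over the 11994 genes whose mean lay in the members' range. That range is wide, 72.6 to 14511 normalized counts with a member median of 1198, so these genes were not matched to the members in level. In bulk libraries a change in the number of cells of a kind and a change in RNA per cell cannot be told apart.

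Most members had a narrow interval for the difference between these libraries. The intervals rest on the spread among 3 libraries a group that may be technical repeats, and all members share those libraries. The 95% interval of the difference lay within 1.5-fold either way for 88 of 92 members (95.7%; background 51.5%), and its width on either side had a median of 0.27 on the log2 scale. NDUFA5, NDUFB10, UQCRHL and ATP5MC2 were the 4 exceptions. The count was 86 without CD24high replicate 3 or without CD24low replicate 3, and 82 without both. A difference of at least 0.25 in either direction was seen for 8 members (8.70%; background 35.1%). Between the highest and the lowest of the 6 libraries a member differed by 1.14- to 1.74-fold, with a median of 1.31-fold, against a median of 1.51-fold for all genes. These backgrounds cover all genes with a mean of at least 10, while the members had a median mean of 1198 normalized counts. The members are thus not set against genes of like level here. The plot of member differences shows these intervals by complex.

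**Figure D1:**
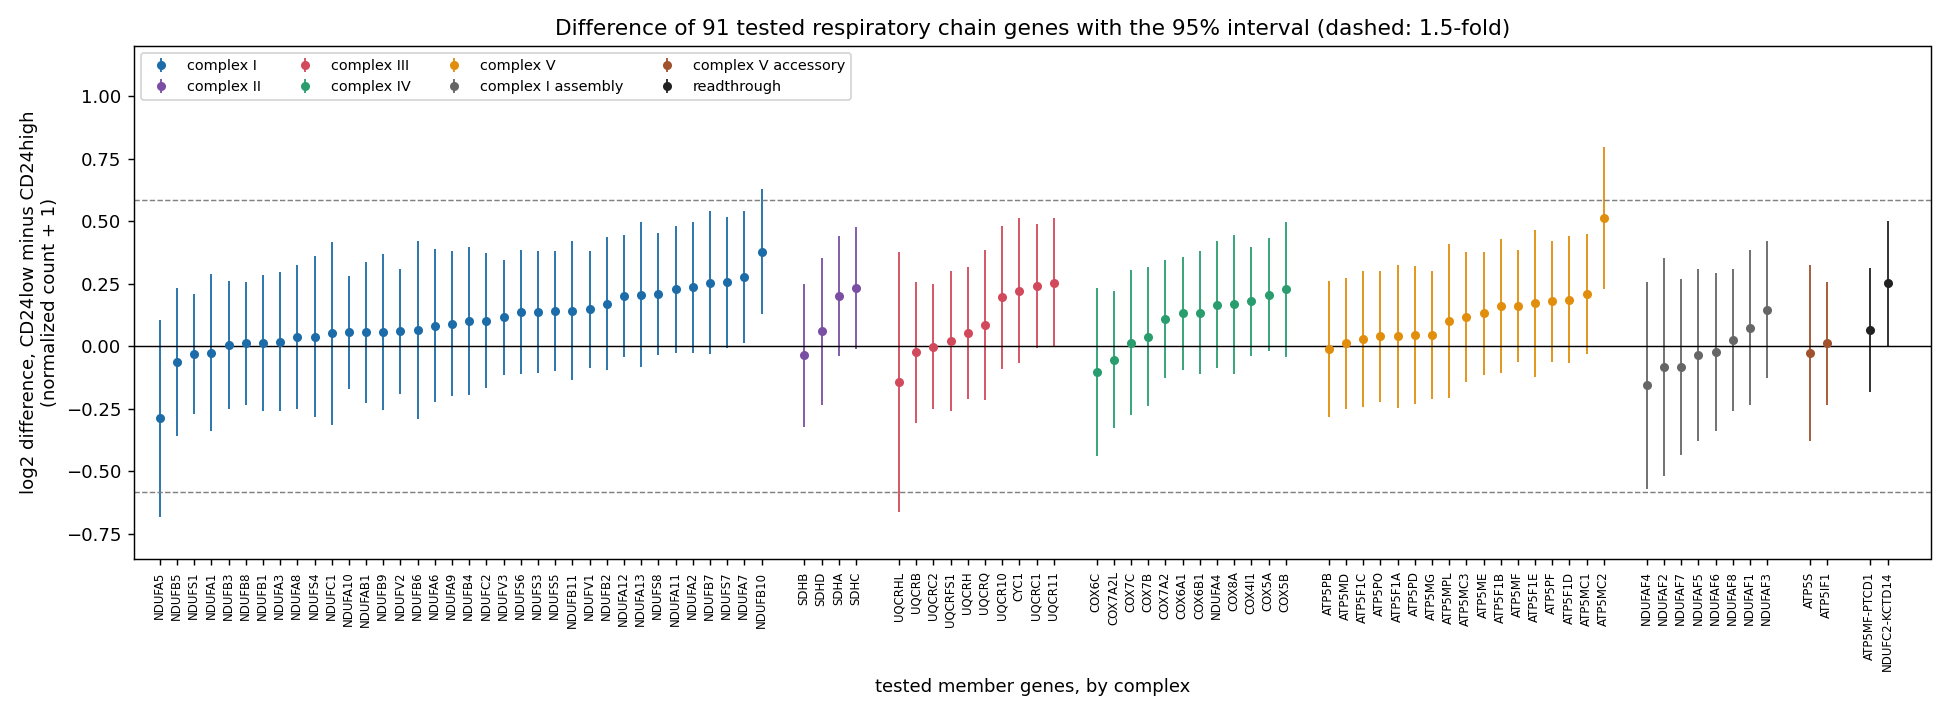
Log2 difference (CD24low minus CD24high, normalized count + 1) of 91 of the 92 tested members on the y axis, ordered within its complex on the x axis; points are estimates, bars 95% intervals from limma (n = 3 libraries a group) and dashed lines a 1.5-fold difference. Of the 91 intervals plotted, 87 stay between the dashed lines, and ATP5MC2 has the largest difference, 0.51.

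Small positive differences prevailed, and they depended on the libraries numbered 3. The difference was above 0 for 75 of 92 members (background 49%). Without CD24high replicate 3 the count was 49, without CD24low replicate 3 it was 56, and without both it was 43. The share of all genes above 0 is not given for these subsets, so the counts can be set against the 75 only. All 3 CD24low libraries lay above all 3 CD24high libraries for 20 members (background 10.2%), 10 of them in complex I, and below for 0 (background 9.32%). Without both libraries numbered 3, 21 members were higher without overlap and 35 lower, where 25% and 26.1% of all genes were. Among libraries of low rRNA share the median of the members was 0.13, and among those of high share it was 0.19. At low share the CD24low side is CD24low replicate 3 alone. At high share the CD24high side is CD24high replicate 3 alone. These medians therefore cannot show whether the shift holds apart from the libraries numbered 3.

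The plot of library shifts sets the libraries side by side. CD24high replicate 3 was the lowest of the 6 libraries for 67 of 92 members (72.8%, against 20.9% of all genes), with a median deviation of -0.19 from each gene's mean. CD24low replicate 3 was the highest for 58 members (63.0%, against 13.2% of all genes), with a median deviation of 0.15. The other 4 libraries had medians from -0.01 to 0.04. CD24high replicate 3 was also the shallowest library and had the highest rRNA share, and the part of either in its low values was not tested. Of the reads outside rRNA genes, members took, in replicate order, 0.664%, 0.666% and 0.592% in the CD24high and 0.676%, 0.661% and 0.698% in the CD24low group, so CD24high replicate 3 remained the lowest on that scale.

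**Figure D2:**
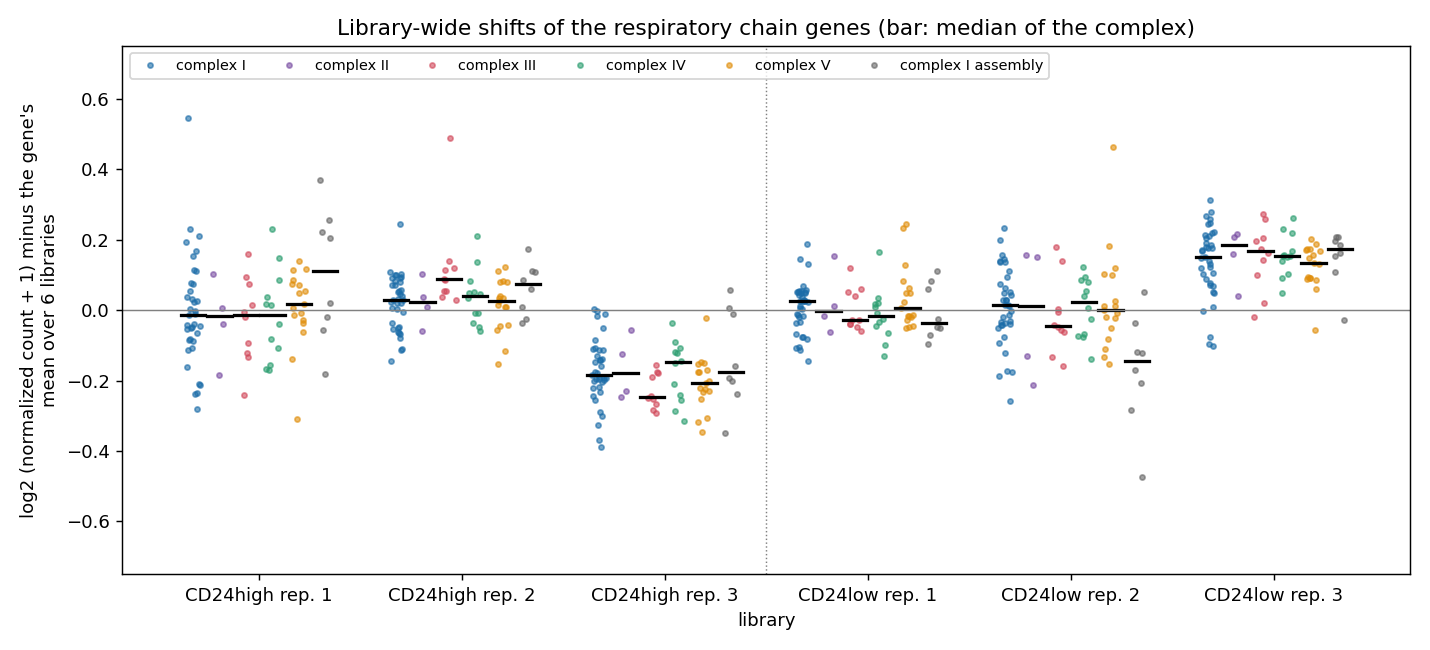
Log2 (normalized count + 1) of each tested member minus its mean over 6 libraries on the y axis, by library on the x axis; each point is a gene coloured by complex and black bars are medians of a complex. Medians of all 5 complexes and of the assembly factors lie below 0 in CD24high replicate 3 and above 0 in CD24low replicate 3.

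Complex I, the NADH dehydrogenase, had 37 tested subunit genes. Its summed level was 39893, 40397 and 35392 normalized counts in CD24high and 40034, 39959.9 and 43862 in CD24low libraries, a ratio of 1.07 for the means, and the groups overlapped. The median difference of its genes was 0.10 (range -0.29 to 0.38), with 33 above 0 and 0 passing the adjusted test. NDUFV1 (chromosome 11, 67605653 to 67612554, plus strand), which binds NADH and the flavin that takes its electrons, had 2007, 2118 and 1943 normalized counts in CD24high and 2107, 2199 and 2426 in CD24low libraries. The lowest CD24low value lay between CD24high values, and the difference was 0.15 (SE 0.10, limma adjusted p = 0.57). NDUFS1 (chromosome 2, 206114817 to 206159603, minus strand), the largest iron-sulfur subunit of the same input module, had 2631, 2374 and 2190.3 against 2259, 2389 and 2383, with CD24high values first here and wherever 2 sets of values are set against each other. Here CD24high replicates 1 and 3 were the highest and the lowest of the 6, and the difference was -0.03 (SE 0.11). NDUFS8 (chromosome 11, 68030617 to 68036644, plus strand), an iron-sulfur subunit near the coenzyme Q site, had 799, 892 and 893 against 939.6, 1016 and 1027 without overlap (0.21, SE 0.11, limma adjusted p = 0.44).

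The complex I genes with the smallest p-values were supernumerary subunits, which surround the catalytic core. NDUFB10 (ENSG00000140990.14, chromosome 16, 1959508 to 1961975, plus strand), a subunit of the membrane arm, had 1065, 1171 and 1175 normalized counts in CD24high and 1344, 1484 and 1608 in CD24low libraries. Every CD24low library was above every CD24high library, by 1.30-fold in the fit (95% interval 1.09 to 1.54; log2 0.38, SE 0.11). It did not pass adjustment over all genes (unadjusted p = 0.0074, limma adjusted p = 0.21, DESeq2 adjusted p = 0.10), and it was 0.53 at low and 0.27 at high rRNA share. NDUFA7 (chromosome 19, 8308768 to 8321396, minus strand), a subunit of the peripheral arm, had 383, 384 and 362 against 454, 437 and 480.0. The groups did not overlap, and the difference was 0.28 (SE 0.12, limma adjusted p = 0.35). NDUFA5 (chromosome 7, 123536997 to 123558255, minus strand), another peripheral arm subunit, had the lowest difference of all members, with 1075, 780.4 and 643 in CD24high and 699, 616 and 687 in CD24low libraries. CD24high replicate 1 was far above the rest and CD24high replicate 3 lay among the CD24low libraries; the difference of -0.29 (SE 0.18, limma adjusted p = 0.51) was -0.09 without CD24high replicate 1.

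Other complex I genes whose groups did not overlap had differences below those of NDUFB10 and NDUFA7. NDUFS3 (0.14) and NDUFS7 (0.25) belong to the conserved catalytic core, and NDUFA2 (0.24), NDUFA11 (0.23), NDUFA12 (0.20) and NDUFV3 (0.12) are supernumerary. NDUFA12, whose promoter holds the NRF1 letters shown above, had 822, 781 and 764 normalized counts in CD24high and 868, 872 and 984 in CD24low libraries. NDUFB4, with the same letters in its promoter, had 1226, 1156 and 928 against 1154, 1094 and 1280.2. The groups of NDUFB4 overlapped and CD24high replicate 3 was its lowest library (0.10, SE 0.13), so of this pair 1 gene stood apart and 1 did not.

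Complex II, succinate dehydrogenase, links the tricarboxylic acid cycle to the chain and has 4 subunits, all encoded in the nucleus. SDHA (chromosome 5, 218241 to 256700, plus strand), the flavoprotein that oxidizes succinate, had 2039, 2334 and 2126 normalized counts in CD24high and 2293, 2582 and 2591 in CD24low libraries. CD24low replicate 1 was below CD24high replicate 2, and the difference was 0.20 (SE 0.11, limma adjusted p = 0.45). SDHB (chromosome 1, 17018722 to 17054170, minus strand), the iron-sulfur subunit, had 1928, 2062 and 1847 against 1839.5, 1657 and 2231, with both the lowest and the highest library in the CD24low group (-0.04, SE 0.13). SDHC (chromosome 1, 161314257 to 161375340, plus strand), a membrane anchor, had 1180.0, 1163 and 1021 against 1350.3, 1348 and 1248. It was the 1 gene of the complex whose groups did not overlap (0.23, SE 0.11, limma adjusted p = 0.39). SDHD (chromosome 11, 112086773 to 112120013, plus strand), the other anchor, had 1787, 1709 and 1419 against 1677, 1522 and 1924, and the groups overlapped (0.06, SE 0.13). The summed level of the complex was 6934, 7268 and 6413 normalized counts in CD24high and 7159.7, 7108 and 7994 in CD24low libraries, a ratio of 1.08 for the means.

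Complex III, the cytochrome bc1 complex, had 10 tested genes with a median difference of 0.07 (range -0.14 to 0.25), 7 of them above 0. CYC1 (chromosome 8, 144095027 to 144097525, plus strand), cytochrome c1, had 2551, 2824 and 2224 normalized counts in CD24high and 2958, 2609 and 3288 in CD24low libraries. CD24low replicate 2 lay within the CD24high range, and the difference was 0.22 (SE 0.13, limma adjusted p = 0.49). UQCRC1 (chromosome 3, 48599002 to 48610976, minus strand), a core scaffold protein, had 3227, 3579 and 2916 against 3636, 3867 and 3956. Those groups stood apart by a narrow gap (0.24, SE 0.11, limma adjusted p = 0.38). UQCRFS1 (chromosome 19, 29205321 to 29213541, minus strand), the Rieske iron-sulfur protein, had 2489, 2421 and 2062 against 2289, 2127 and 2673, and the groups overlapped (0.02, SE 0.13). UQCR11 (chromosome 19, 1597172 to 1605490, minus strand), a small subunit and the gene with the pair of ETS matches shown above, had 771, 935 and 807 against 950.2, 1032 and 1005. Its groups did not overlap, with a difference of 0.25 (SE 0.12, limma adjusted p = 0.38). UQCRHL (chromosome 1, 15807169 to 15809348, minus strand), a copy of the hinge protein gene UQCRH, had the lowest mean normalized count of the tested members, with 70.5, 101 and 59.9 against 69.6, 64.0 and 70.5 (-0.14, SE 0.23). CD24high replicate 2 was its highest library and the other 5 spanned 59.9 to 70.5.

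Complex IV, cytochrome c oxidase, had 12 tested genes of 19, with a median difference of 0.13 (range -0.10 to 0.23). COX4I1 (chromosome 16, 85798633 to 85807044, plus strand), the widely expressed form of the largest nuclear subunit, had 2986, 3136 and 2956 normalized counts in CD24high and 3298, 3401 and 3576 in CD24low libraries. COX5A (chromosome 15, 74919791 to 74938168, minus strand) had 1289, 1401 and 1362 against 1624, 1490.1 and 1555. In both genes the lowest CD24low library lay above the highest CD24high library, with differences of 0.18 (SE 0.10, limma adjusted p = 0.46) and 0.20 (SE 0.10, limma adjusted p = 0.41). COX5B (chromosome 2, 97646040 to 97648383, plus strand), a zinc-binding subunit, had 1517, 1745 and 1471 against 1651, 1852 and 2041. CD24high replicate 2 exceeded CD24low replicate 1, and the difference was 0.23 (SE 0.12, limma adjusted p = 0.44). NDUFA4 (chromosome 7, 10931951 to 10940256, minus strand), named for complex I but a subunit of complex IV, had 1655, 1755 and 1425 against 1722, 1814 and 1872 (0.17, SE 0.11). COX6C, a small subunit whose gene lies at chromosome 8, 99873200 to 99894062, minus strand, had 1529, 1509.5 and 1068 against 1192, 1238 and 1348, the most negative difference of the complex (-0.10, SE 0.15). Its CD24low libraries lay between CD24high replicate 3 and the other CD24high libraries.

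Of the complex IV subunits with tissue or stress isoforms, nearly all reads came from one gene of each pair. COX4I2, the lung isoform, COX6A2 and COX7A1, the heart and muscle isoforms, and COX7B2 and COX8C, known from testis, had 0 reads in all 6 libraries. With a floor of 3 reads per library, which covers counting error only, 0 reads allowed at most 0.0801% to 0.148% of the summed level of COX4I2 and COX4I1, depending on the library and without correction for length. The same limit was 0.117% to 0.209% for COX6A2 beside COX6A1, 0.152% to 0.293% for COX7A1 beside COX7A2, and 0.165% to 0.329% for COX7B2 beside COX7B. COX6A1 (chromosome 12, 120438090 to 120440742, plus strand) had 2130.1, 2242 and 2091 normalized counts in CD24high and 2239, 2339 and 2502 in CD24low libraries, and the groups overlapped (0.13, SE 0.10). COX7A2 (chromosome 6, 75237675 to 75250323, minus strand) had 1636, 1555 and 1493 against 1644, 1592 and 1822. COX7B (chromosome X, 77899438 to 77907373, plus strand) had 1506, 1522 and 1329.7 against 1372, 1394 and 1725. CD24low replicate 3 was the highest library for each of these genes, and both pairs of groups overlapped (0.11, SE 0.11, and 0.04, SE 0.12).

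A few reads were found for COX6B2 and NDUFA4L2. COX6B2, a testis isoform, had 7, 10 and 6 reads in CD24high and 6, 5 and 4 in CD24low libraries, 0.153% to 0.450% of its summed level with COX6B1. COX6B1 (chromosome 19, 35648223 to 35658861, plus strand) had 1970.0, 2183 and 2139 normalized counts against 2158, 2205 and 2556, with overlap (0.13, SE 0.11). NDUFA4L2, a paralog of NDUFA4 known to be induced in hypoxia, had 1, 3 and 1 reads in each of the groups, 0.0501% to 0.169% of its summed level with NDUFA4. ATP5MGL, a copy of the complex V gene ATP5MG, had 0.955 to 5.84 normalized counts. At this depth no use of these genes by a fraction was detectable beyond a few reads.

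Complex V, the ATP synthase, had 17 tested genes of 18, with a median difference of 0.12 (range -0.01 to 0.51) and 16 above 0. ATP5F1A (chromosome 18, 46080248 to 46104334, minus strand), the alpha subunit of the catalytic head, had 10337, 10115 and 8025 normalized counts in CD24high and 9382, 9508 and 10208 in CD24low libraries. CD24high replicate 3 was far below the other 5 libraries, and the difference was 0.04 (SE 0.13) over all 6 libraries and -0.08 without that library. ATP5F1B (chromosome 12, 56638175 to 56646068, minus strand), the catalytic beta subunit, had 14179.9, 14566 and 12404 against 15315, 14474 and 16127. CD24high replicate 2 exceeded CD24low replicate 2, and the difference was 0.16 (SE 0.12, limma adjusted p = 0.59). The summed level of the complex was 53149, 53265 and 44994 in CD24high and 53383, 52169 and 57229.7 in CD24low libraries, a ratio of 1.08 for the means. Besides the c subunit genes, ATP5MF (0.16) and ATP5PF (0.18) had groups that did not overlap. Of the accessory genes, ATP5IF1, the inhibitor that blocks the enzyme from hydrolysing ATP, differed by 0.01 and ATP5S by -0.03.

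ATP5MC2 was the member with the largest difference and the 1 that DESeq2 called. The ring that turns in ATP synthase is built of c subunits, and the genes ATP5MC1, ATP5MC2 and ATP5MC3 encode the same mature c protein behind different import sequences. ATP5MC2 (ENSG00000135390.17, chromosome 12, 53632726 to 53677408, minus strand) had 1089.5, 1213 and 1091 normalized counts in CD24high and 1598, 1862 and 1408 in CD24low libraries. The CD24high libraries were close together, the CD24low libraries were all higher, and CD24low replicate 2 was the highest. The fitted difference was 1.43-fold (95% interval 1.17 to 1.73; log2 0.51, SE 0.13), where DESeq2 gave an adjusted p of 0.026 and limma one of 0.16 (unadjusted p = 0.0025). It was 0.29 among libraries of low and 0.66 among libraries of high rRNA share, and 0.41 to 0.61 with any 1 library left out. In CD24high replicate 3, where other complex V genes had a median deviation of -0.20 from their means, ATP5MC2 had -0.31, as in CD24high replicate 1 (-0.31, against 0.03 for the others).

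The other c subunit genes differed less. ATP5MC1 (chromosome 17, 48892765 to 48895871, plus strand) had 1138, 1151 and 1029 normalized counts in CD24high and 1298, 1196 and 1338 in CD24low libraries, without overlap (0.21, SE 0.11, limma adjusted p = 0.43). ATP5MC3 (chromosome 2, 175176258 to 175184607, minus strand), the highest of the 3 per kb of transcript (4131 normalized counts per kb, against 1993 for ATP5MC1 and 1568 for ATP5MC2), had 3436, 3560.4 and 3013 against 3525, 3347 and 3989.5, with overlap (0.12, SE 0.12, limma adjusted p = 0.70). Per kb, ATP5MC2 made up 17.2%, 18.3% and 19.0% of the summed level of the 3 genes in the CD24high libraries in replicate order. It made up 22.3%, 26.2% and 18.7% in the CD24low libraries, so CD24low replicate 3 lay within the CD24high range. The log2 ratio of ATP5MC3 to ATP5MC2 was 1.56 ± 0.10 (SD, n = 3) in CD24high and 1.16 ± 0.33 in CD24low libraries, a difference of -0.39 with a two-sided exact permutation p of 0.2 (0.3 after adjustment over the 2 ratios tested). For ATP5MC1 to ATP5MC2 the ratio was -0.03 ± 0.08 and -0.34 ± 0.28, a difference of -0.30 (exact permutation p = 0.3, adjusted 0.3). With 3 libraries against 3 the smallest possible p is 0.1, and neither ratio was shown to differ between the fractions.

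**Figure D3:**
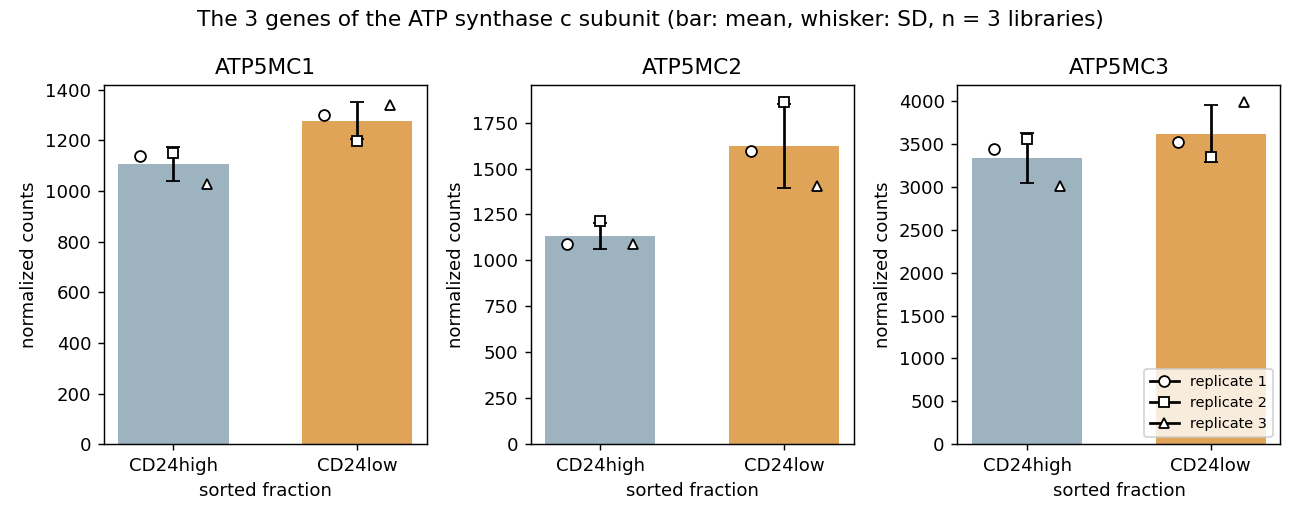
Normalized counts (y axes, from 0) of ATP5MC1, ATP5MC2 and ATP5MC3 in the CD24high and CD24low fractions (x axes); symbols are libraries, bars means and whiskers SD (n = 3). All 3 CD24low libraries lie above all CD24high libraries for ATP5MC1 and ATP5MC2, and the groups overlap for ATP5MC3.

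The complex I assembly factors, which help build the complex and are not part of it, had differences on either side of 0. Their median difference was -0.03 (range -0.16 to 0.15), with 3 of 8 above 0, and 0 of 8 had groups without overlap. Their summed level was 3779.8, 3641 and 3194 normalized counts in CD24high and 3489.5, 3093 and 3899 in CD24low libraries, with the lowest value in CD24low replicate 2. NDUFAF3 (chromosome 3, 49020459 to 49023495, plus strand) had 455, 507 and 511 against 538, 502 and 591 (0.15, SE 0.12, limma adjusted p = 0.64), and CD24low replicate 2 lay within the CD24high range. NDUFAF4 (chromosome 6, 96889313 to 96897881, minus strand), its partner in early assembly, had 588, 568 and 451 against 534, 363 and 561 (-0.16, SE 0.18, limma adjusted p = 0.75). CD24low replicate 2 was the lowest library for NDUFAF4, and without it the difference was 0.04. The difference between the assembly factors and the subunit genes was not tested.

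Levels differed far more between genes than between fractions. Per kb of an annotated principal transcript, ATP5F1B had the highest mean over 6 libraries, 7891 normalized counts per kb, followed by ATP5MF (6119), ATP5F1A (4934), COX6B1 (4645) and COX4I1 (4505). The ranges of ATP5F1B (6745 to 8769) and ATP5MF (5399 to 6545) over the 6 libraries did not overlap, whereas those of COX6B1 (4156 to 5391) and COX4I1 (4128 to 4995) did. Median levels per kb were 2933 for complex IV, 2088 for complex V, 1239 for complex III, 1068 for complex II, 1041 for complex I and 212 for the complex I assembly factors. The scale depends on the transcript chosen: SDHC, a subunit present in equal number with SDHA, had 89.8 against 974 for SDHA, since the transcript taken for SDHC is 13566 bases long.

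**Figure D4:**
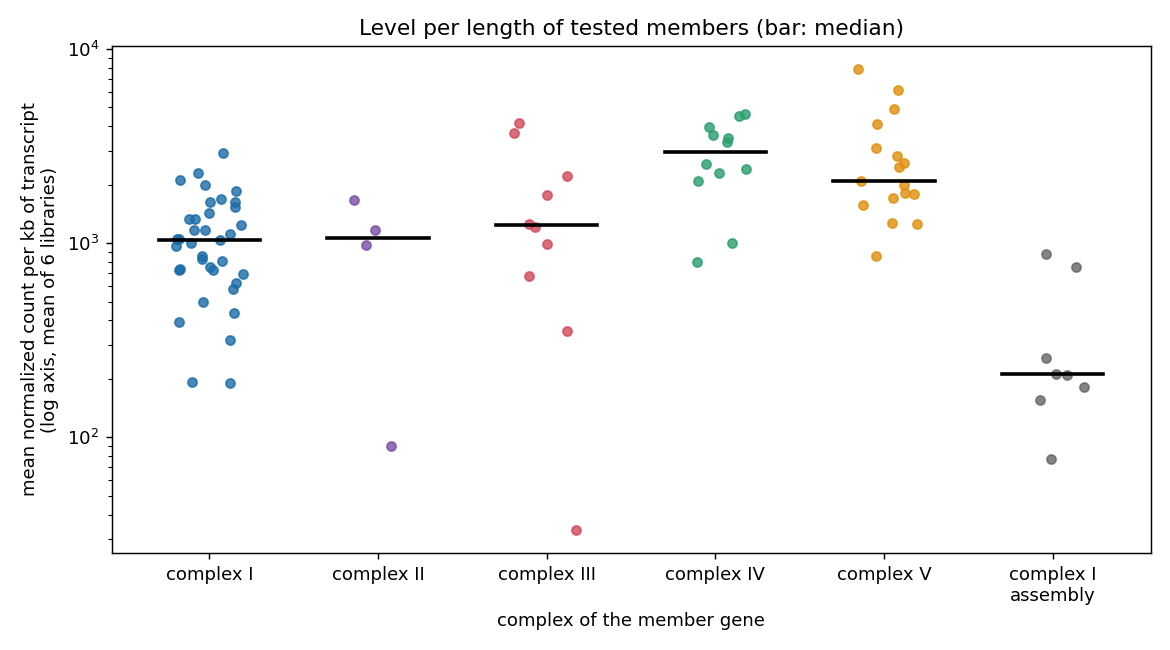
Mean normalized count per kb of transcript over 6 libraries (y axis, log scale) of each tested member, by complex (x axis); points are genes and bars medians. The median is highest for complex IV (2933) and lowest for the complex I assembly factors (212).

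Members of higher transcript GC content had higher differences. Across the 92 members, which share the 6 libraries, the difference and GC content had a Pearson r of 0.60 (Spearman rho 0.61), given as a description across genes that are not independent. Among all 12441 coding genes tested r was 0.20 (rho 0.36). Across members r was 0.58 among libraries of low rRNA share, 0.16 among libraries of high rRNA share and 0.63 without both libraries numbered 3. The 46 members at or above the median GC content of 48.6% had a median difference of 0.15, with 44 above 0, and the 46 below it had 0.04, with 31 above 0. NDUFB10 and ATP5MC2 belong to the first set, and NDUFA5, NDUFAF4 and UQCRHL to the second. The part of GC content in these differences was not tested. By promoter motif, the median difference was 0.10 for the 17 with NRF1 letters and 0.08 for the 58 without. It was 0.13 for the 21 with ETS letters and 0.08 for the 54 without. For YY1 it was 0.13 (8 with) and 0.07 (67 without), and for TATAAA 0.13 (6) and 0.08 (69). For SP1 it was 0.09 both with (44) and without (31). Above 0 were 16 of 17 with NRF1 letters and 48 of 58 without. For ETS these counts were 17 of 21 and 47 of 54. No motif was tested against the differences.

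**Figure D5:**
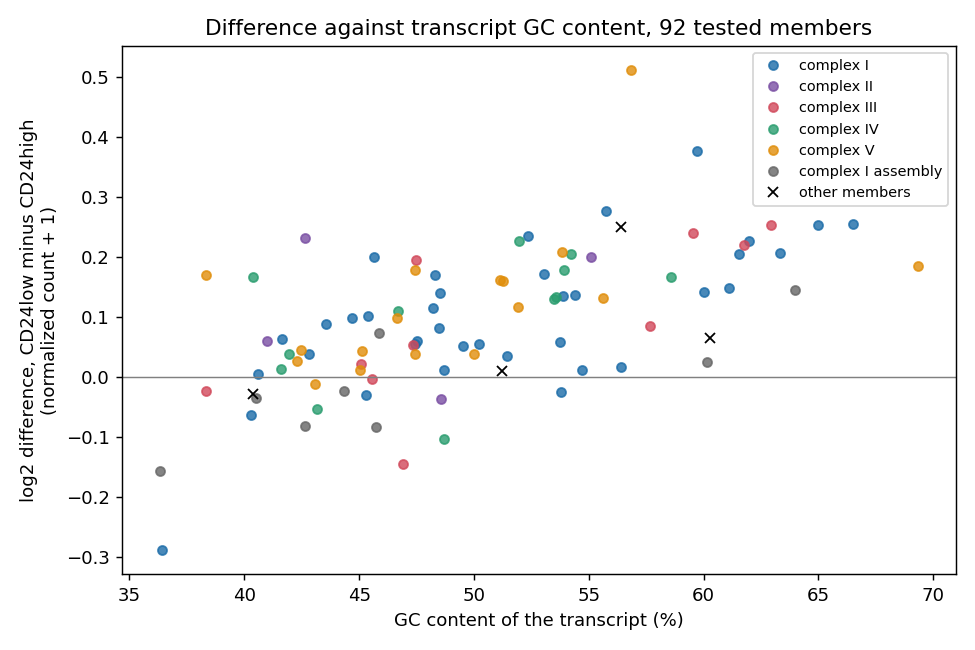
Log2 difference (CD24low minus CD24high, y axis) against the GC content of the transcript (x axis, percent) for the 92 tested members, coloured by complex. Members of high GC content lie higher: 44 of 46 at or above the median of 48.6% have a difference above 0, against 31 of 46 below it.

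Near-identical copies and overlapping genes make some counts uncertain. Respiratory genes have many processed pseudogenes, and 164 named pseudogenes belonged to 47 of the tested members; 59 of them held reads, 1.58% of the reads of all tested members and these pseudogenes together. The share was 26.4% for COX6A1, 24.7% for SDHA and 18.1% for UQCRFS1, so the values of these 3 genes rest most on how reads were assigned. NDUFC2-KCTD14 had 819, 832 and 766 normalized counts in CD24high and 936, 899 and 1045 in CD24low libraries (0.25, SE 0.11, unadjusted p = 0.049, limma adjusted p = 0.37). This readthrough gene spans NDUFC2, which differed by 0.10, and reads in shared exons cannot be told apart. The strand setting of the counting is not given in the sources used here, so overlapping and antisense genes are uncertain too.

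Most subunit genes of the mitochondrial genome had differences below 0. Of 13 such genes, 0 passed limma's adjusted test (before adjustment 0 were higher, background 6.34%, and 1 lower, background 7.15%), 1 was lower with DESeq2 (background 1.15%) and 3 had a difference above 0 (background 49%), with a median of -0.17 (0.01 among libraries of low and -0.72 among libraries of high rRNA share). MT-ND6, the complex I gene on the other strand of the mitochondrial genome, had 378, 377 and 408 normalized counts in CD24high and 260.0, 234 and 168 in CD24low libraries. The groups did not overlap, and the difference was -0.83 (SE 0.17, DESeq2 adjusted p = 0.0045, limma adjusted p = 0.12). MT-ND5, the gene of the list with the next smallest p, had 1482, 1751 and 3485 against 1844, 1509 and 1620.1, with CD24high replicate 3 far above the rest (-0.33, limma adjusted p = 0.61). Summed over complex I, nuclear genes had 5.56, 4.42 and 1.77 times the normalized counts of the mitochondrial genes in the CD24high libraries in replicate order, and 3.53, 4.07 and 5.53 times in the CD24low libraries. The ratio was lowest in CD24high replicate 3, and the groups overlapped. That library also had the highest rRNA share, which includes mitochondrial rRNA.

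Other genes of the pathway were taken from 9 further lists, and 0 of their 113 tested genes passed limma's adjusted test. Before adjustment, 5 were higher (background 6.34%) and 4 lower (background 7.15%) in CD24low cells at p below 0.05. Among 15 tested regulators of nuclear respiratory genes, DESeq2 called 1 higher (PPARGC1A, background 1.36%) and 0 lower (background 1.15%), and the median was -0.09. PPARGC1A (chromosome 4, 23755041 to 23904089, minus strand), the coactivator that drives mitochondrial biogenesis, had 0.830, 3.95 and 2.92 normalized counts in CD24high and 7.05, 59.2 and 14.7 in CD24low libraries, from 1, 4 and 2 reads against 8, 62 and 15. All CD24low libraries were higher and CD24low replicate 2 by far the highest (2.58, SE 0.72, DESeq2 adjusted p = 0.018, limma adjusted p = 0.19; 1.77 without CD24low replicate 2). PPARGC1A passed the filter of a mean of at least 10 only through the CD24low group (mean 2.57 in CD24high and 27.0 in CD24low libraries), so its call and the count above are given as a description. GABPA, the DNA-binding subunit of GABP, had 910.3, 664 and 739 against 568, 579 and 688, with overlap (-0.33, limma adjusted p = 0.37). NRF1 and YY1, whose motifs were counted above, differed by 0.04 and -0.02, and TFAM, the packaging and transcription factor of mitochondrial DNA, by -0.24 (limma adjusted p = 0.56).

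Medians of the 5 further assembly lists ran from -0.03 to 0.12. Of 25 complex IV assembly and copper delivery genes the median was -0.03, and COX19, a copper-handling protein of the intermembrane space, had 809.9, 919.7 and 861 against 509, 465 and 779. The groups did not overlap (-0.60, SE 0.18, limma adjusted p = 0.22, DESeq2 adjusted p = 0.099), with CD24low replicate 3 nearest to the CD24high libraries. SCO2, a copper chaperone, differed by 0.19 (limma adjusted p = 0.55). Of 6 complex III assembly genes the median was 0.12, and UQCC2 had 355, 339.8 and 316 against 419.6, 402 and 472 without overlap (0.35, limma adjusted p = 0.29), while TTC19 differed by -0.21 (limma adjusted p = 0.46). Medians were 0.05 for 4 complex II, 0.01 for 12 further complex I and 0.10 for 5 complex V assembly genes; in the last list FMC1 had 46.5, 88.9 and 59.9 against 91.7, 114 and 84.2 with overlap (0.60, limma adjusted p = 0.36). The genes of smallest p in the other lists differed by 0.26 (SDHAF2) and -0.22 (SDHAF3) for complex II, 0.19 (ECSIT) and -0.16 (TMEM126B) for complex I, and 0.19 (ATPAF1) for complex V. Their limma adjusted p-values ran from 0.41 (SDHAF2) to 0.71 (TMEM126B).

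Carriers and the feeding pathways gave no call either. Of 15 genes of electron carriers and coenzyme Q synthesis the median was 0.05; CYCS, cytochrome c, had 7854, 5277 and 4809 against 4904, 3283 and 4819, with CD24high replicate 1 the highest and CD24low replicate 2 the lowest (-0.45, limma adjusted p = 0.38). COQ2, which attaches the side chain of coenzyme Q, had 720.3, 637 and 533 against 734, 726 and 766 without overlap (0.25, limma adjusted p = 0.45). Of 21 tricarboxylic acid cycle and pyruvate dehydrogenase genes the median was 0.06; IDH3A, a subunit of the NAD-dependent isocitrate dehydrogenase, had 2033, 1682 and 1723 against 1423, 1300.0 and 1669 without overlap (-0.31, limma adjusted p = 0.34). IDH3G, another subunit of that enzyme, had 468, 475 and 498 against 545, 615 and 541, also without overlap but in the other direction (0.24, limma adjusted p = 0.41). Of 10 tested uncoupling, carrier and supercomplex genes the median was -0.03. SLC25A6, an exchanger of ADP and ATP across the inner membrane, had 3665, 4218 and 4055 against 5028, 5189 and 4561 (0.31, limma adjusted p = 0.27). HIGD1A, a small protein that binds complex IV, had 3269, 2982 and 2829 against 2430.1, 2427 and 2672 (-0.27, limma adjusted p = 0.32). The groups did not overlap for either gene, and the directions were opposite.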

How the data were processed

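The deposited signal of each gene is its read count divided by a DESeq2 size factor, made by the authors per the submitters' processing notes; STAR 2.5.2, R 3.5.0 and build hg38 are named there as well. Which counter, strand setting and annotation release they used is not given in the sources used here. Libraries were strand-specific total RNA depleted of rRNA, per the labels' protocols. Within each library all values were whole multiples of 1 step, so reads were recovered (100% of values whole within 0.1 read; 1 read was worth 0.830 to 1.46 normalized counts). Replicates of a group differed by more than sampling noise in every pair, so each library counted once.

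Of 58381 IDs, 58261 matched GENCODE 29 without their version, and 27150 had no read. The main test was limma 3.58.1 in R 4.3.3, two-sided, fitted with its trend option to log2 (normalized count + 1) with a term for group alone, over the 16047 genes whose mean was at least 10, with Benjamini-Hochberg adjustment and a threshold of 0.05; the pseudocount of 1 understates the change of low genes. DESeq2 1.42.0 and edgeR 4.0.16 took the recovered reads of these genes. Tables and figures used Python 3.11.15, pandas 2.3.3, numpy 2.4.6, scipy 1.17.1 and matplotlib 3.10.9. Promoter windows are from RefSeq (GRCh38.p14). On simulated counts for this comparison, 200 of the 16047 genes, drawn at random, were changed. Of these, limma recovered 1.00% at 1.5-fold, 61.0% at 2-fold and 91.5% at 4-fold. DESeq2 recovered 26.0%, 69.5% and 91.0%.

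The members and all lists were chosen with earlier results of these data known. Named with values were fixed core genes, isoform genes, the 2 genes of smallest p in each complex or list, the 3 largest differences each way and members past any adjusted test; other names were chosen after their values were seen. The values of 1 core gene are not reported here. The alternatives tried were other pseudocounts, filters, scalings and tools, no trend, a replicate block, the rRNA share as a covariate, libraries of like rRNA share, and each library left out.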

Additional observations from a re-analysis of the deposited data

How the results depend on the processing

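The count of respiratory chain genes past an adjusted p was 0 in the reported fit and 1 (ATP5MC2) with DESeq2, and likewise once the replicate block entered limma or edgeR; the other settings run gave 0. Over all genes the count was 0 in the reported fit, 402 with DESeq2, 164 with no filter on low values, 716 with the replicate block in limma, 705 with it in edgeR, 103 without both libraries numbered 3, and 0 to 366 with 1 library left out (366 without CD24low replicate 3). Same-numbered libraries had correlations of their deviations from the group means of 0.27, 0.30 and 0.05. Each CD24high library correlated best with the CD24low library of its own number. CD24low replicate 3 correlated slightly better with CD24high replicate 1 (0.08) than with CD24high replicate 3 (0.05). Whether same-numbered libraries were pairs is not settled by these values, and the reported fit treats them as unpaired. The block called 1 gene among the regulators and 1 among the mitochondrially encoded subunits with either tool, as DESeq2 did, and 1 among complex IV assembly genes in edgeR; without CD24low replicate 3 that list also had 1. Members with a difference above 0 numbered 49 (without CD24high replicate 3) to 84 (without CD24high replicate 1) with 1 library left out and 43 without both libraries numbered 3. Without both, the median difference was -0.031 over all members, 0.014 in complex II, -0.11 in complex III, 0.037 in complex IV and -0.026 in complex V, and it was 0.23 in complex III among libraries of high rRNA share. The cause of these shifts was not tested.

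Some named genes with differences near 0 changed sign. Without both libraries numbered 3, SDHD was -0.13, UQCRFS1 -0.15, ATP5F1A -0.11, COX7B -0.13 and ATP5MC3 -0.026. With the rRNA share as a covariate NDUFS1 was 0.0082 and SDHB 0.041. Among libraries of high rRNA share NDUFS1 was 0.085, NDUFA5 0.030 and UQCRHL 0.15, among those of low share SDHB was 0.16 and ATP5F1A -0.0024, and with total scaling UQCRFS1 was -0.0080. With 1 library left out NDUFS1 ranged from -0.093 to 0.039, SDHB from -0.15 to 0.060, SDHD from -0.040 to 0.14, UQCRFS1 from -0.070 to 0.095, ATP5F1A from -0.077 to 0.11, COX7B from -0.068 to 0.10, NDUFAF4 from -0.27 to 0.041 and UQCRHL from -0.31 to 0.064. ATP5MC2, NDUFB10 and NDUFA7 stayed positive under every setting run. With 3 libraries a group, limma recovered 1.00% and DESeq2 26.0% of simulated 1.5-fold changes. Those changes were placed at random among all genes tested, so the rates describe genes at large. Recovery at the level and spread of the respiratory chain genes was not simulated.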
